A study of Homo sapiens with 6 samples.

Results

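The genes described here encode nuclear-encoded proteins of respiratory complexes II to V, namely complex II (SDH genes), complex III (UQCR genes and CYC1), complex IV (COX genes), complex V (ATP5 genes) and the electron carrier cytochrome c. They were chosen by name, with earlier results of these data known, from a list of 41 symbols. No threshold on measured values was applied to the list, and all 41 genes were found among the 58243 genes of the files. Of these, 4 belong to complex II, 9 to complex III, 11 to complex IV and 16 to complex V, and CYCS encodes cytochrome c. The RNA came from CAL27, an epithelial line established from a human tongue squamous carcinoma, and was sequenced as mRNA libraries. Cultures were kept for 48 h in high-glucose medium with serum and with either PBS (3 libraries) or 30 mM metformin (3 libraries), and no other dose, time or cell line was included. The labels name no genetic change in either group. Whether the 3 libraries of a group are separate cultures is not stated, so p-values here rest on the spread between libraries, which may be technical.

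In the inner mitochondrial membrane, complexes I and II pass electrons to coenzyme Q, complex III passes them on to cytochrome c, and complex IV passes them to oxygen. Complexes III and IV pump protons as they do so, and complex V, the ATP synthase, lets the protons return and makes ATP. Complex II pumps none and is also the succinate dehydrogenase of the citric acid cycle. Metformin, a biguanide used against type II diabetes, is known to inhibit complex I. Genes of these complexes are known targets of the transcription factors NRF1 and GABP (an ETS factor), which bind close to the start sites of many of them.

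To show what these start sites look like, the windows from 250 bases before to 50 bases after each start (RefSeq, GRCh38.p14) were searched on both strands for the NRF1 core motif (GCGCA, any 1 base, GCGC). The table held windows for 33 of the 41 genes, and 9 of the 33 had a match, against 6.98% of all 27305 genes of the table. Below, each match is in capitals with 10 bases on either side, on the gene's strand and 5′ to 3′. The SDHA window is shown because it holds 4 identical matches, each 49 bases after the one before.
SDHA, chr5:218144-218173, plus strand: ggtccgctttGCGCAGGCGCggcgccccca
SDHA, chr5:218193-218222, plus strand: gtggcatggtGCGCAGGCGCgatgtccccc
SDHA, chr5:218242-218271, plus strand: ccggcgtggtGCGCAGGCGCggtatccccc
SDHA, chr5:218291-218320, plus strand: ccggtgtggtGCGCAGGCGCagtctgcgca
The next 3 sites belong to genes that fell with metformin, and the last 2 to genes that did not pass the test.
UQCRC1, chr3:48609674-48609703, minus strand: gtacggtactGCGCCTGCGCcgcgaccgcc
ATP5F1C, chr10:7788145-7788174, plus strand: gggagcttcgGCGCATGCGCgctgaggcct
ATP5PO, chr21:33915809-33915838, minus strand: acgccaacgcGCGCGTGCGCccttgcgcgt
SDHD, chr11:112086753-112086782, plus strand: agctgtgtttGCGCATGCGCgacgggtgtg
UQCR10, chr22:29767351-29767380, plus strand: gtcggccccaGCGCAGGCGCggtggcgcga

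At least 4 matches in 1 window were found in 15 of the 27305 genes (0.0549%), of which SDHA is 1. Counted from the RefSeq start, the matches in the SDHA window began at positions -166, -117, -68 and -19. GENCODE 29 lets the gene begin at base 218241, so the last pair of sites lies within its model of SDHA. Those shown for the other genes began at -47 in UQCRC1, -22 in ATP5F1C, -24 in ATP5PO, -110 in SDHD and -8 in UQCR10. The ETS core CCGGAAG was found in 15 of the 33 genes (12.2% of all genes), the YY1 motif AAGATGGCG in 3 (2.14%) and the cAMP response element TGACGTCA in 3 (2.25%), all searched on both strands. No 1 of the 4 motifs contains another. The NRF1 motif was found in 5 of the 16 matched genes that fell and in 4 of the 17 that did not pass, and the ETS core in 7 and 8. These are matches of letters and not measured binding.

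Values were deposited as FPKM, fragments per kilobase of exon scaled to the mapped fragments of the library, which summed to between 200842 and 208899 per library. The spacing of low values put the depth at 7810000 to 8860000 counted fragments a library, an estimate, with PBS replicate 3 the deepest and PBS replicate 2 the shallowest. Every gene of complexes II to V had an estimate of at least 83 fragments in each library, with ATP5ME the lowest and CYCS, at 2463 or more, the highest. Of 8 epithelial markers, 7 reached 1 FPKM, and 0 of 5 muscle markers did. Of the epithelial markers, 5 rose while KRT17 and KRT5 fell, KRT5 from 355 ± 6.04 to 52.4 ± 4.19 FPKM (limma adjusted p = 1.25e-06). Of 4 fibroblast markers, 1 reached 1 FPKM: COL1A1 rose from 1.36 ± 0.200 to 2.38 ± 0.221 FPKM (limma adjusted p = 0.00563). COL1A2, COL3A1 and PDGFRB stayed at or under 0.270. Of 5 leukocyte markers, 2 reached 1 FPKM: CD14 fell from 3.71 ± 1.09 to 0.942 ± 0.135 FPKM and CD68 rose from 2.15 ± 0.207 to 3.33 ± 0.319 (limma adjusted p = 0.00133 and 0.00611), while PTPRC and CD3E stayed at or under 0.338. CDH5, an endothelial cadherin, was at 5.87 to 6.77 FPKM with PBS and 1.98 to 2.12 with metformin while PECAM1 stayed at or under 0.158. The part of these markers in the results was not tested.

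Metformin went with lower levels of 21 of the 41 genes and higher levels of 0. The largest falls were those of SDHA (2.37-fold), which belongs to complex II, and of ATP5MC3 (2.31-fold) and ATP5F1A (2.14-fold), which belong to complex V. In this bulk RNA, fewer cells of a type and less RNA per cell cannot be told apart. A gene is said to rise or fall where limma's test on log2(FPKM + 1) gave an adjusted p under 0.05 over the 13437 genes that averaged 1 FPKM or more, and all 41 genes were among these. Widespread change is the background here: 25.2% of all tested genes fell and 31.0% rose (56.2% in either direction), against 51.2% and 0 of the 41. Because the 41 were chosen with earlier results of these data known, this comparison is a description only. At an unadjusted p under 0.05, limma placed 25 of the 41 genes lower and 0 higher, beside 27.4% and 34.0% of all tested genes. All metformin libraries lay below all PBS libraries for 24 of the 41, where 28.7% of all tested genes did so, and above them for 0, where 35.7% did so. The median log2 change was -0.23, beside 0.06 over all tested genes, and the range ran from -1.19 for SDHA to 0.13 for COX7A2L. Of the 20 genes that did not pass, 16 had a negative and 4 a positive log2 change.

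The complexes are described side by side here, and differences between them were not tested. Complex V had the most calls, with 11 of 16 genes lower and a median log2 change of -0.42. Complex III had 5 of 9 lower (median -0.23), complex IV 4 of 11 (median -0.14) and complex II 1 of 4 (median -0.13). As shares these were 68.8% for complex V, 55.6% for III, 36.4% for IV and 25% for II, beside 25.2% of all tested genes. The share of complex II was thus that of the background. The count of complex III was 7 of 9 without PBS replicate 1 and 3 of 9 when PBS replicate 2, PBS replicate 3, metformin replicate 1 or metformin replicate 3 was left out. Without PBS replicate 1, 2 of the 4 complex II genes were lower. The summed FPKM of the complex V genes went from 638 ± 10.2 (SD, n = 3) to 419 ± 8.33, a level 1.52-fold lower. Of these sums, ATP5F1B alone gave 235 and 119. For complex IV the sum went from 909 ± 54.0 to 689 ± 14.3, of which COX8A alone gave 467 and 305. For complex II it went from 114 ± 5.78 to 86.2 ± 1.94 and for complex III from 397 ± 26.5 to 329 ± 6.51.

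**Figure D1:**
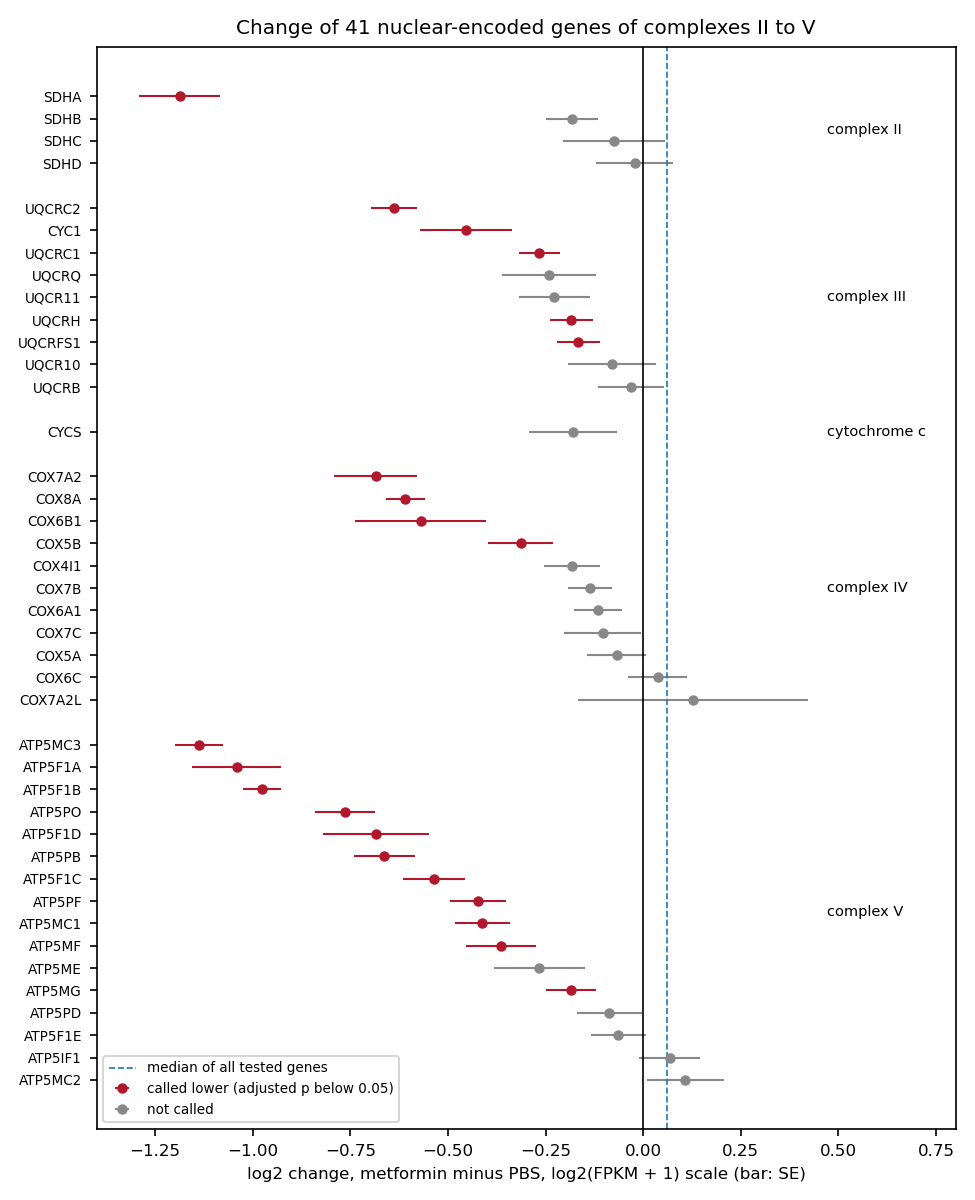
Log2 change with metformin (horizontal axis, log2(FPKM + 1) scale, metformin minus PBS) of each of the 41 genes, ordered within complexes II, III, cytochrome c, IV and V, with bars for the standard error over 3 libraries a group. Red points are the 21 genes that fell, grey points the 20 that did not pass, and the dashed line is the median of all tested genes at 0.06.

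**Figure D2:**
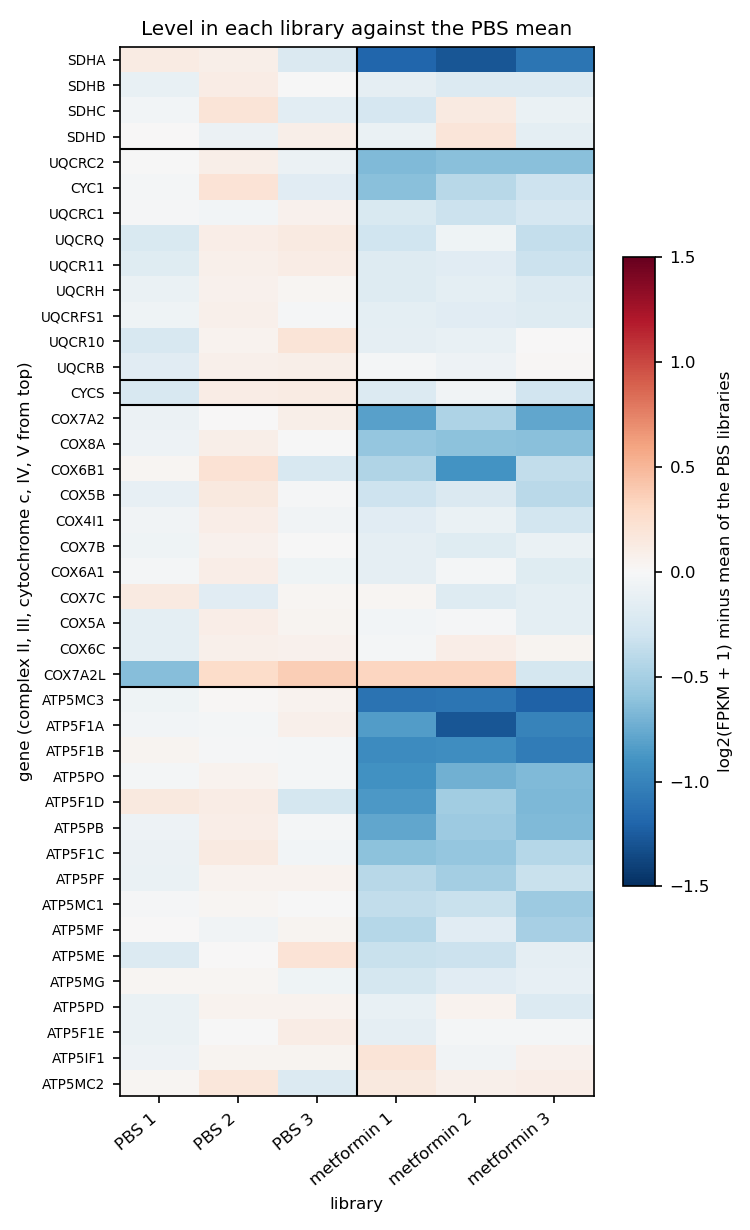
Level of each gene (rows, by complex) in each of the 6 libraries (columns), as log2(FPKM + 1) minus the mean of the PBS libraries. Blue cells are below that mean and red cells above it: SDHA, ATP5MC3, ATP5F1A and ATP5F1B are blue in all 3 metformin libraries, and COX7A2L is low in PBS replicate 1 and metformin replicate 3.

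Within the PBS group, replicate 1 held the lowest value for 26 of the 41 genes, replicate 2 for 4 and replicate 3 for 11. The same was not counted over all tested genes, so whether this is particular to the 41 is not known. Without PBS replicate 1, 24 of the 41 genes were lower in place of 21. Leaving out any other single library gave between 17 and 19 lower and 0 higher. Thus the direction of the calls was shared by all 6 sets of 5 libraries, while their number was not.

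In complex II, SDHA was the 1 gene of 4 that fell. SDHA (ENSG00000073578.16, chr5:218241-256700) encodes the flavoprotein that holds FAD and oxidises succinate. Its level was 39.5, 38.4 and 31.0 FPKM in the PBS libraries and 15.3, 14.3 and 16.4 FPKM in the metformin libraries. Every metformin library was thus under the lowest PBS library, at a mean of 42.2% of the PBS mean. The means were 36.3 ± 4.63 and 15.3 ± 1.04 FPKM (SD, n = 3), which is -1.19 on the log2 scale (SE 0.10, limma adjusted p = 0.000127). SDHB, the iron-sulphur subunit that takes electrons from SDHA, was at 48.1, 56.6 and 51.9 FPKM with PBS and 47.2, 45.1 and 45.1 with metformin. Its groups did not overlap, but PBS replicate 1 lay close to the metformin libraries and the test was not passed (log2 change -0.18, SE 0.07, limma adjusted p = 0.0541; 0.0225 without PBS replicate 1).

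The membrane anchor genes SDHC and SDHD, whose products bind coenzyme Q, overlapped between the groups. SDHC was at 6.23, 7.49 and 5.68 FPKM with PBS and 5.23, 7.15 and 5.91 with metformin (log2 change -0.08, SE 0.13, limma adjusted p = 0.649). SDHD was at 19.3, 18.01 and 20.4 FPKM and then 17.9, 21.9 and 17.3 (log2 change -0.02, SE 0.10, limma adjusted p = 0.865). For both, metformin replicate 2 was the highest of its group. As a share of the summed FPKM of the 4 SDH genes, SDHA made up 31.7% ± 3.25 with PBS and 17.8% ± 1.59 with metformin. Dividing instead by the length of each gene's principal transcript, the shares were 44.8% and 27.5%. With 3 libraries against 3, the two-sided exact permutation test of this share gave p = 0.1, the smallest that it can give, and 0.114 after adjustment over the 8 shares tested here. SDHA has near copies in the genome, so that its reads can be misplaced. The copy SDHAP1 was at 10.2 ± 1.28 FPKM with PBS and 11.2 ± 0.645 with metformin and did not pass (limma adjusted p = 0.301).

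**Figure D3:**
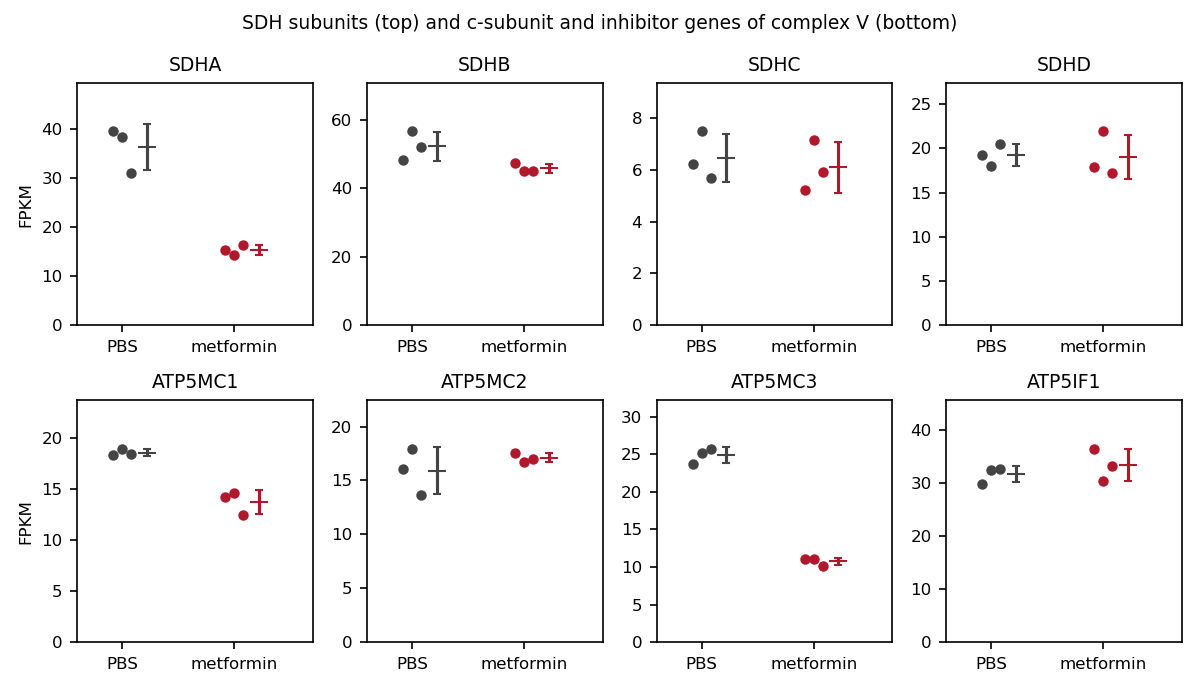
FPKM (vertical axes from 0, a scale of its own for each gene) in the 3 PBS and 3 metformin libraries, as points, with the mean and SD beside them, for the SDH genes and for the c-subunit and inhibitor genes of complex V. SDHA, ATP5MC1 and ATP5MC3 separate the groups widely, SDHB narrowly, and SDHC, SDHD, ATP5MC2 and ATP5IF1 overlap.

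In complex III, the genes of the matrix-facing core and of cytochrome c1 fell most. UQCRC2, a core protein, was at 40.4, 43.1 and 38.2 FPKM with PBS and 25.2, 26.0 and 25.9 with metformin. The metformin libraries lay within 1 FPKM of each other and all were under the PBS libraries, with means of 40.6 ± 2.46 and 25.7 ± 0.432 (log2 change -0.64, SE 0.06, limma adjusted p = 0.00016). CYC1, the haem-bearing subunit that hands electrons to cytochrome c, was at 55.3, 65.2 and 50.1 FPKM and then at 36.1, 42.1 and 45.2. Its groups did not overlap, though the gap between them was small beside the spread within them (log2 change -0.45, SE 0.12, limma adjusted p = 0.0154). UQCRC1, the partner core protein, went from 52.2, 51.5 and 55.3 FPKM to 45.2, 42.1 and 44.3 (log2 change -0.27, SE 0.05, limma adjusted p = 0.00478). The fall of UQCRC1 was smaller than that of UQCRC2, 1.21-fold against 1.58-fold, and this difference was not tested.

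UQCRH, the hinge protein near cytochrome c1, and UQCRFS1, the Rieske iron-sulphur protein, passed narrowly. UQCRH was at 74.4, 83.4 and 81.4 FPKM with PBS and 69.6, 71.6 and 68.8 with metformin (log2 change -0.18, SE 0.06, limma adjusted p = 0.0270). UQCRFS1 was at 28.2, 31.1 and 29.1 FPKM and then 26.6, 26.1 and 25.7 (log2 change -0.17, SE 0.05, limma adjusted p = 0.0377). Neither pair of groups overlapped. UQCRH did not pass in limma without PBS replicate 2 (adjusted p = 0.0734), PBS replicate 3 (0.0777), metformin replicate 1 (0.0733) or metformin replicate 3 (0.0757). UQCRFS1 did not pass in limma without PBS replicate 2 (adjusted p = 0.0947), PBS replicate 3 (0.0711) or any 1 of the metformin libraries (0.0686 to 0.0982).

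The 4 small subunit genes UQCRQ, UQCR11, UQCR10 and UQCRB did not pass, with log2 changes from -0.24 for UQCRQ (SE 0.12, limma adjusted p = 0.132) to -0.03 for UQCRB. UQCR10 was at 44.2, 54.5 and 60.1 FPKM with PBS and 47.7, 48.6 and 52.7 with metformin (limma adjusted p = 0.574). UQCRB was at 10.1, 12.2 and 12.2 FPKM and then 11.2, 10.8 and 11.6 (limma adjusted p = 0.771). In both, PBS replicate 1 was the lowest of the 6 libraries. UQCR11 (limma adjusted p = 0.0737) and UQCRQ passed without PBS replicate 1, at limma adjusted p = 0.0141 and 0.0272. UQCRC1 and UQCRC2 together made up 23.6% ± 1.39 of the summed FPKM of complex III with PBS and 21.2% ± 0.768 with metformin (exact permutation p = 0.1).

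CYCS, which encodes the cytochrome c that shuttles electrons from complex III to complex IV, was at 68.6, 87.5 and 88.7 FPKM with PBS and 69.96, 78.3 and 66.4 with metformin. PBS replicate 1 lay among the metformin libraries, so the groups overlapped. Means of 81.6 ± 11.3 and 71.6 ± 6.14 FPKM differed on the log2 scale by -0.18 (SE 0.11, limma adjusted p = 0.213; 0.0240 without PBS replicate 1). Its processed pseudogenes share much of its sequence, and CYCSP6, at 9.14 ± 3.07 FPKM with PBS and 15.4 ± 1.28 with metformin, rose (log2 change 0.74, limma adjusted p = 0.0178).

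In complex IV, 4 of 11 genes fell. All 11, those that did not pass included, encode proteins around the catalytic core, which is itself encoded in mitochondrial DNA. COX8A, a single-pass membrane subunit, was at 441, 494 and 465 FPKM with PBS and 312, 303 and 301 with metformin. The means of 467 ± 26.7 and 305 ± 5.90 FPKM differed on the log2 scale by -0.61 (SE 0.05, limma adjusted p = 9.38e-05), and the metformin libraries lay close together. COX7A2, the form of subunit VIIa found in most tissues, was at 18.9, 20.3 and 21.6 FPKM and then at 11.0, 14.4 and 11.4 (log2 change -0.69, SE 0.11, limma adjusted p = 0.00171). Its fall of 1.65-fold was the largest of the complex, and metformin replicate 2 was the highest of the treated libraries.

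COX6B1, a subunit on the intermembrane side where cytochrome c docks, was at 62.0, 70.7 and 51.1 FPKM with PBS and 44.1, 32.3 and 47.0 with metformin. Both groups were broad, and the nearest libraries, PBS replicate 3 and metformin replicate 3, were close (log2 change -0.57, SE 0.17, limma adjusted p = 0.0249). It did not pass in limma without PBS replicate 1 (adjusted p = 0.0656), PBS replicate 2 (0.0765) or metformin replicate 2 (0.0505). COX5B, a zinc-binding subunit on the matrix side, was at 53.2, 64.3 and 57.3 FPKM and then 46.5, 49.7 and 43.6 (log2 change -0.31, SE 0.08, limma adjusted p = 0.0166), and did not pass without metformin replicate 3 (limma adjusted p = 0.0533).

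The other 7 COX genes did not pass, with log2 changes between -0.18 and 0.13. COX4I1, a regulatory subunit, was the nearest of these to the threshold (log2 change -0.18, limma adjusted p = 0.0690), and its groups did not overlap. COX5A, which pairs with it, was at 58.6, 69.8 and 67.0 FPKM with PBS and 63.3, 64.0 and 58.6 with metformin (log2 change -0.07, limma adjusted p = 0.480). COX6C was at 25.1, 29.4 and 29.1 FPKM and then 27.2, 29.9 and 28.5 (log2 change 0.04, limma adjusted p = 0.701). These groups overlapped widely, as did those of COX7C, at 28.2, 22.6 and 26.1 FPKM and then 26.2, 22.2 and 23.0 (log2 change -0.10, limma adjusted p = 0.408).

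COX7A2L, a relative of COX7A2 that links complexes III and IV in supercomplexes, varied most between replicates. It was at 5.42, 11.1 and 11.9 FPKM with PBS and 11.5, 11.5 and 7.34 with metformin, with 1 low library in each group (log2 change 0.13, SE 0.29, limma adjusted p = 0.733). Its coefficient of variation was 37.2% with PBS and 23.7% with metformin. COX7A2L made up 31.0% ± 7.58 of the summed FPKM of the pair with PBS and 44.8% ± 5.95 with metformin. The groups of this share did not overlap (exact permutation p = 0.1). The muscle and other tissue forms COX4I2, COX6A2 and COX7B2 were listed at 0 in all 6 libraries, and COX7A1 did not exceed 0.568 FPKM. COX8C did not exceed 0.0449 FPKM. COX6B2 was at 0.0418 ± 0.0208 FPKM with PBS and 0.469 ± 0.144 with metformin. Its groups did not overlap, but it was under the level that was tested.

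In complex V, the genes of the F1 head, which makes ATP in the matrix, were lower in 4 of 5, with a median log2 change of -0.68. ATP5F1B (ENSG00000110955.8, chr12:56638175-56646068), the catalytic beta subunit, was at 242, 233 and 230.3 FPKM with PBS and 121, 123 and 113 with metformin. Its level was thus nearly halved in each treated library, from 235 ± 6.24 to 119 ± 5.53 FPKM (log2 change -0.98, SE 0.05, limma adjusted p = 1.33e-05). ATP5F1A, the alpha subunit that alternates with beta in the head, was at 22.2, 22.3 and 24.1 FPKM and then 12.3, 8.83 and 10.9 (log2 change -1.04, SE 0.11, limma adjusted p = 0.00035). ATP5F1D, the delta subunit of the rotor, was at 24.9, 24.2 and 18.4 FPKM and then 11.9, 15.3 and 13.6 (log2 change -0.68, SE 0.14, limma adjusted p = 0.00499). PBS replicate 3 was the lowest control for ATP5F1D and still lay above every metformin library.

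ATP5F1C, the gamma subunit that forms the central shaft, fell 1.47-fold (log2 change -0.54, limma adjusted p = 0.00138). ATP5F1E, the epsilon subunit at the foot of that shaft, did not pass, at 25.0, 26.8 and 28.99 FPKM with PBS and 24.3, 26.4 and 26.3 with metformin (log2 change -0.06, SE 0.07, limma adjusted p = 0.472). The 3 rotor genes of F1 thus had log2 changes from -0.68 to -0.06. The 5 F1 genes made up 54.2% ± 1.20 of the summed FPKM of the 16 ATP5 genes with PBS and 46.6% ± 0.244 with metformin (exact permutation p = 0.1), a share in which ATP5F1B weighs most. Divided by principal transcript length, the shares were 34.5% and 27.1%.

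The c ring, which turns as protons pass, is encoded by 3 genes whose mature protein is the same and whose targeting peptides differ. ATP5MC3 (ENSG00000154518.9, chr2:175176258-175184607) was at 23.7, 25.2 and 25.7 FPKM with PBS and 11.0, 11.1 and 10.2 with metformin. Both groups were tight and far apart, with means of 24.9 ± 1.04 and 10.7 ± 0.502 FPKM (log2 change -1.14, SE 0.06, limma adjusted p = 1.93e-05). ATP5MC1 was at 18.3, 18.97 and 18.4 FPKM and then 14.2, 14.6 and 12.4, a fall of 1.35-fold (log2 change -0.41, SE 0.07, limma adjusted p = 0.0027). ATP5MC2 was at 16.1, 17.9 and 13.6 FPKM and then 17.5, 16.7 and 17.0, with the treated libraries inside the range of the controls (log2 change 0.11, SE 0.10, limma adjusted p = 0.382).

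The share of each gene in the summed FPKM of the c-subunit genes was then compared. ATP5MC3 went from 41.9% ± 2.25 to 25.8% ± 0.217, and ATP5MC2 from 26.7% ± 2.80 to 41.2% ± 1.73. Neither share overlapped between groups, each with an exact permutation p of 0.1. ATP5MC1 made up 31.3% ± 0.686 and 33.0% ± 1.53, which overlapped (exact permutation p = 0.3). With principal transcript lengths, ATP5MC3 went from 21.6% to 12.4%, ATP5MC2 from 22.8% to 32.8% and ATP5MC1 from 55.6% to 54.7%. The order of the 3 genes thus depends on the length used, and so does the sign of the small difference in ATP5MC1, while ATP5MC3 was lower and ATP5MC2 higher on both scales.

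Of the 4 peripheral stalk genes, which hold the head still against the turning rotor, 3 fell. ATP5PO, the subunit that joins the stalk to the head and confers oligomycin sensitivity, was at 24.7, 26.1 and 24.7 FPKM with PBS and 12.9, 14.9 and 15.6 with metformin. The treated libraries all lay well under the controls (log2 change -0.76, SE 0.08, limma adjusted p = 0.00025). ATP5PB, the long b subunit, fell 1.60-fold and ATP5PF, the coupling factor subunit, 1.35-fold (limma adjusted p = 0.000476 and 0.00253). ATP5PD, the d subunit, overlapped, at 26.3, 29.3 and 29.5 FPKM and then 26.2, 29.5 and 24.4 (log2 change -0.09, limma adjusted p = 0.415).

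Among the membrane subunits e, f and g, which shape the synthase dimer, ATP5MF (f) fell 1.29-fold (log2 change -0.36, limma adjusted p = 0.0129) and ATP5MG (g) 1.15-fold (log2 change -0.18, limma adjusted p = 0.0450). ATP5ME (e) had a log2 change of -0.27 and did not pass (limma adjusted p = 0.0933; 0.0276 without PBS replicate 1). ATP5MG did not pass in limma without PBS replicate 1 (adjusted p = 0.12), PBS replicate 2 (0.11) or any 1 of the metformin libraries (0.0531 to 0.128).

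ATP5IF1, the inhibitor that binds the F1 head and blocks ATP hydrolysis when the proton gradient fails, did not pass. It was at 29.9, 32.5 and 32.7 FPKM with PBS and 36.5, 30.4 and 33.2 with metformin, and the groups overlapped (log2 change 0.07, SE 0.08, limma adjusted p = 0.485). As a percentage of the ATP5F1B value in the same library, it was 13.5% ± 1.01 with PBS and 28.1% ± 2.90 with metformin. The lowest treated library, at 24.8%, lay above the highest control, at 14.2% (exact permutation p = 0.1). With principal transcript lengths the values were 48.2% and 100.2%.

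Reads of neighbouring genes can be added to a gene where exons overlap and strand is ignored, and the strand setting is not given in the sources used here. Of the 41 genes, 10 share exon bases with another tested gene, 9 of them only with a gene on the opposite strand. The longest overlap for its size was that of ATP5PF, which shares 413 bases, 20.2% of its exons, with GABPA, which encodes a GABP subunit. GABPA went from 7.91 ± 0.0859 to 8.69 ± 0.590 FPKM (limma adjusted p = 0.169) where ATP5PF fell. ATP5PO shares 300 bases with LINC00649, which rose from 1.15 ± 0.187 to 2.55 ± 0.479 FPKM (limma adjusted p = 0.00368). SDHC shares 774 bases with CFAP126, which rose from 2.65 ± 0.831 to 4.96 ± 0.560 FPKM (limma adjusted p = 0.00895). The part of these neighbours in the values of ATP5PF, ATP5PO and SDHC was not tested.

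The other genes of the pathway were taken from lists of assembly factors, partners and regulators. Assembly factors, which build the complexes and are not part of them, were called in both directions. The share that fell was 0% for complex II, 11.1% for III, 24% for IV and 0% for V, none above that of all tested genes (25.2%). Of all tested genes, 31.0% rose. Of 4 tested for complex II, 0 fell and SDHAF1, which helps insert iron-sulphur clusters into SDHB, rose 1.24-fold (median log2 change 0.28). SDHAF2, SDHAF3 and SDHAF4 did not pass, with log2 changes of 0.26, -0.17 and 0.35. Of 9 for complex III, UQCC3 fell 1.20-fold while SMIM4 and UQCC1 rose 1.94-fold and 1.32-fold (median -0.03). Of 25 for complex IV, 6 fell and 5 rose (median 0.10), among them COX19, a copper-delivery protein, which rose from 9.87 ± 0.660 to 16.1 ± 0.649 FPKM (limma adjusted p = 0.000286). COA6 rose 1.49-fold and SURF1, a factor mutated in Leigh syndrome, fell 1.47-fold.

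For complex V, 5 assembly factors were tested, of which 0 fell (1 at an unadjusted p under 0.05 in limma, and 2 with quantile normalization) and FMC1 and TMEM242 rose, 2.03-fold and 1.44-fold (median log2 change 0.07). ATPAF1 and ATPAF2, chaperones of the beta and alpha subunits, and TMEM70, which helps build the c ring, had log2 changes of 0.07, -0.21 and -0.18 and did not pass. The supercomplex factors HIGD1A and HIGD2A did not pass, at -0.02 and 0.03 (median 0.01). Single libraries decided several of these calls. That of SDHAF1 was lost without any 1 library other than PBS replicate 2 (limma adjusted p from 0.0756 to 0.106), and that of UQCC1 without PBS replicate 1 or metformin replicate 3 (0.0594 and 0.0506). UQCC3 was lost without PBS replicate 1, metformin replicate 1 or metformin replicate 3 (limma adjusted p from 0.0618 to 0.0689), SMIM4 without metformin replicate 1 or 3 (0.0562 and 0.0713) and TMEM242 without metformin replicate 2 or 3 (0.0578 and 0.0512). Without PBS replicate 1 or metformin replicate 3, 3 complex IV factors rose in place of 5. Of 12 further nuclear subunits and isoforms, 4 were tested, and UQCRHL, an intronless copy of UQCRH at low level, rose 2.17-fold while 0 fell (median 0.06). The call of UQCRHL was lost without any 1 library other than PBS replicate 1 (limma adjusted p from 0.0595 to 0.108). NDUFA4 of complex IV (log2 change -0.20) and ATP5MD of complex V (0.24) did not pass. The 6 subunit genes of complexes III to V that mitochondrial DNA carries were listed at 0 throughout, and no level of theirs can be set beside those of their nuclear partners.

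**Figure D4:**
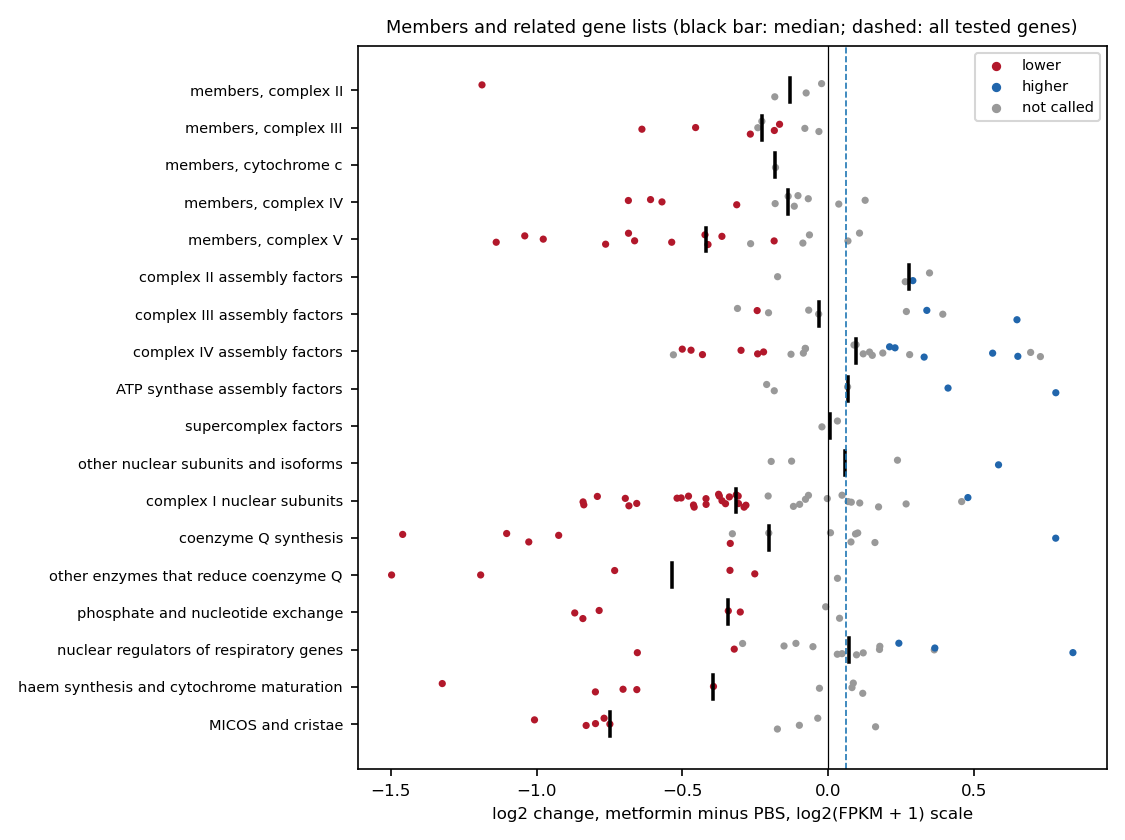
Log2 change with metformin (horizontal axis, log2(FPKM + 1) scale) of every tested gene of complexes II to V, by complex, and of 13 lists of related genes. Points are genes (red fell, blue rose, grey did not pass), black bars are list medians and the dashed line is the median of all tested genes at 0.06. The medians of the assembly factor lists lie between -0.03 and 0.28, and those of the 5 nuclear complex groups between -0.42 and -0.13.

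In the lists of genes that feed or surround the respiratory chain, falls outnumbered rises, while 25.2% of all tested genes fell and 31.0% rose. Complex I had 23 of 37 nuclear subunit genes lower and 1 higher (median log2 change -0.32), with NDUFB8, NDUFB9 and NDUFV1 lower by 1.86-fold, 1.80-fold and 1.78-fold. Of 6 other enzymes that reduce coenzyme Q, 5 fell and 0 rose (median -0.53). GPD2, the glycerol phosphate dehydrogenase of the inner membrane, went from 30.4 ± 0.704 to 10.3 ± 2.34 FPKM (limma adjusted p = 0.000246), and SQOR and DHODH fell 2.37-fold and 2.22-fold. Of 13 genes of coenzyme Q synthesis, 5 fell and 1 rose (median -0.20), and with a filter at 5 FPKM, which leaves 6 of them, 1 fell and 1 rose. PDSS1, which makes its side chain, went from 5.87 ± 0.580 to 1.496 ± 0.125 FPKM (limma adjusted p = 3.43e-05), and COQ2 and COQ7 fell 2.65-fold and 2.54-fold.

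Of 7 genes that exchange phosphate and nucleotides for the ATP synthase, 5 fell and 0 rose (median log2 change -0.34), among them SLC25A5, an ADP/ATP carrier, from 271 ± 11.0 to 151 ± 9.33 FPKM (limma adjusted p = 5.01e-05). VDAC1 and VDAC3, channels of the outer membrane, fell 1.84-fold and 1.79-fold. Of 9 genes of haem synthesis and cytochrome maturation, which supply the haem of complexes II to IV, 5 fell and 0 rose (median -0.39; 1 of the 4 left by a filter at 5 FPKM fell), with ALAD, FECH and UROS lower by 3.15-fold, 2.02-fold and 1.81-fold. Of 9 genes of the cristae, the folds that hold the complexes, 5 fell and 0 rose (median -0.75), with C19orf70, SAMM50 and OPA1 lower by 2.19-fold, 1.88-fold and 1.83-fold. In these 3 lists and among the enzymes that reduce coenzyme Q, limma also placed 0 genes higher at an unadjusted p under 0.05.

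The factors that drive respiratory genes were called in both directions, with 2 of 16 tested lower (12.5%) and 3 higher (median log2 change 0.07). Of all tested genes, a larger share fell (25.2%) and 31.0% rose. NRF1, whose motif is shown above, was at 4.19 ± 0.450 FPKM with PBS and 4.36 ± 0.336 with metformin (limma adjusted p = 0.681). GABPB2, a partner of GABPA, rose 2.29-fold (limma adjusted p = 0.000177), ESRRA rose 1.20-fold (limma adjusted p = 0.0136) and TWNK, the helicase of mitochondrial DNA, rose 1.32-fold. TFAM, which packages that DNA, fell 1.27-fold (limma adjusted p = 0.0285), a call lost without PBS replicate 2, PBS replicate 3, metformin replicate 2 or metformin replicate 3 (limma adjusted p from 0.0637 to 0.0825), and TFB1M, a methyltransferase of mitochondrial ribosomal RNA, fell 1.67-fold. PPARGC1A, a coactivator, stayed under the level that was tested, at 0.124 ± 0.0690 and 0.184 ± 0.0661 FPKM.

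The genes of complexes II to V are short, with a median principal transcript of 1240 bases beside 3076 for all tested coding genes. Those that fell had a median of 1179 bases and those that did not pass 1296. Across the 41 genes, log2 change and the log of transcript length had a Pearson r of -0.11 and a Spearman rho of 0.05. Log2 change and the log of the mean PBS level per principal transcript length had an r of -0.24 and a rho of -0.29. These are descriptions across genes, which come from the same 6 libraries. In transcripts of up to 600 bases, the median log2 change was -0.27 for the 5 genes of complexes II to V and 0.13 for coding genes. From 600 to 1000 bases it was -0.31 for 11 genes and -0.12 for coding genes, and over 4000 bases it was -0.18 for 5 genes and 0.10 for coding genes. In the bins between, ending at 1500, 2500 and 4000 bases, it was -0.20, -0.18 and -0.17, against -0.06, -0.03 and 0.002. The share of coding genes that fell was 37.8% from 600 to 1000 bases, where 7 of the 11 genes fell. From 1000 to 1500 bases it was 33%, where 3 of 8 fell, and over 4000 bases 22.8%, where 2 of 5 fell.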

How the data were processed

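The files that the authors deposited hold FPKM values for 6 libraries, per the file headers. Per the submitters' processing notes the build was GRCh38, while the sources used here give no aligner, counting tool, strand setting or annotation. Identifiers without version were matched to GENCODE 29, which named 57980 of 58243 genes. The members and all 14 related lists were chosen with earlier results of these data known.

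Low FPKM values were spaced in whole fragments when multiplied by the length of all exons of a gene combined (38.4% to 42.4% of values within 0.05 of a whole number, 7.60% to 9.19% with the longest transcript, 10% by chance). FPKM of genes with long rare isoforms is therefore low, and FPKM as deposited was not ranked between genes. Shares and the sums by complex were also computed per principal transcript length, an alternative chosen after seeing the data. The level correlated with log2 change was computed on that scale only. Fragments per gene are estimates from the same steps.

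Genes averaging 1 FPKM or more were fitted as log2(FPKM + 1) with limma 3.58.1 in R 4.3.3 (intensity trend, group as the only term). P-values are two-sided and adjusted by Benjamini and Hochberg over 13437 genes. Log2 changes are on the log2(FPKM + 1) scale and understate those of low genes. Changes given as a fold are ratios of mean FPKM, so the 2 measures differ most in low genes. Shares were compared by exact permutation over 20 splits. The fit was tested on simulated data. Python 3.11.15, pandas 2.3.3, NumPy 2.4.6, SciPy 1.17.1 and matplotlib 3.10.9 were used.

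Values in every library are given, per complex, for up to 5 called genes with the largest and 3 genes with the smallest changes, and for CYCS, ATP5IF1 and the c-subunit genes. From each list up to 3 called genes, all genes of lists of 5 or fewer, and 5 regulators, are named. COX7A2L, NDUFA4, ATP5MD, the tissue isoforms, neighbours and pseudogenes were added after their values were seen. Alternatives were 2 pseudocounts, 2 level filters, 3 scalings, a replicate block, 2 priors, coding genes only and libraries left out. Of 144 pseudogenes named after these genes, 7 were tested and 2 of them rose. Promoter sequences are from RefSeq.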

Additional observations from a re-analysis of the deposited data

How the results depend on the processing

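The count of higher genes was 0 under each of the 18 alternatives, and no direction of a called gene reversed. Of the 21 lower calls, 15 passed under all 18. Calls of UQCRFS1, ATP5MG, UQCRH, COX6B1 and COX5B were lost under 2 to 10 of them, and that of ATP5MF without both libraries numbered 3 (limma adjusted p = 0.0905). The count of lower genes was between 17 and 24 with 1 library left out, 16 without both libraries numbered 3, 25 with median-of-ratios scaling, 22 with a filter at 5 FPKM or with coding genes only, 19 with quantile normalization or a fixed sum, and 18 without the intensity trend or without a filter. Complex II had 2 lower genes in place of 1 with the filter at 5 FPKM, median-of-ratios scaling or coding genes only, and 1 to 2 with 1 library left out. Complex III had 3 in place of 5 without the intensity trend, with quantile normalization or without both libraries numbered 3, and 3 to 7 with 1 library left out. Complex IV had 3 to 4 and complex V 10 to 11 with 1 library left out. Without both libraries numbered 3, complex I had 14 lower genes in place of 23, complex IV assembly factors 3 in place of 6 and the enzymes that reduce coenzyme Q 3 in place of 5. The cause was not tested. Same-numbered libraries did not deviate together (correlations -4e-04, 0.0304 and -0.0105). Paired samples with little shared variation would also give correlations near 0, so whether the numbers pair the samples is not settled. With the replicate block, 19 of the 41 genes were lower. Small log2 changes of SDHC, SDHD, UQCRB, UQCR10, COX5A, COX6C, COX7A2L and ATP5PD changed sign under some settings. Scalings moved the median of all genes to between -0.01 and 0.08. The exact permutation test of shares cannot give a p under 0.1 at 3 libraries a group, and the depth of 83 or more estimated fragments per gene limits the smallest changes that could be seen.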
